A study of Sus scrofa with 16 samples.

Results

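The circadian clock genes ARNTL (also named BMAL1), CLOCK, PER1, PER2, PER3, CRY1, CRY2, NR1D1, NR1D2 and DBP were examined in the pituitary of Puławska gilts. The members were taken by gene symbol, and all 10 were found among the 25880 genes of the count table. Each had at least 82 counts in every one of the 16 libraries, and all 10 passed the filter on low counts. The material came from females of a native Polish breed, with an age label of 3 months and no treatment, although the methods of the study describe older animals at slaughter. The groups were formed on feed conversion, which tells how much feed an animal needs to gain weight, with 8 gilts of low (LFC, replicates 1 to 8) and 8 of high feed conversion (HFC, replicates 9 to 16). The methods describe unrelated gilts from different farms, kept at 1 test station, and whole glands that were homogenised. The time of day at which each gland was taken is not given in the sources used here, so no library can be placed on a clock phase.

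The clock is a feedback loop of transcription that runs in nearly every cell, the endocrine cells of the pituitary included. ARNTL and CLOCK proteins form a dimer that binds E-box elements and activates the PER, CRY, NR1D1, NR1D2 and DBP genes. PER and CRY proteins accumulate and repress that dimer, which closes the main loop. NR1D1 and NR1D2 (REV-ERB alpha and beta) repress ARNTL, whereas ROR proteins activate it, and this second loop keeps ARNTL mRNA opposite in phase to the mRNA of NR1D1, DBP and the PER genes. In glands taken at different phases, NR1D1, DBP and PER mRNAs therefore tend to rise and fall together, and against ARNTL mRNA.

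Total counts ranged from 13.998 (replicate 5) to 23.06 M in LFC and from 10.973 (replicate 14) to 19.307 M in HFC. Anterior lobe hormone genes were present in all libraries, with summed levels of 83950 to 186800 counts-per-million (CPM) in LFC and 93390 to 257000 CPM in HFC. This sum includes POMC, which is also used below as a melanotroph marker. On the first principal component, the main axis of variation, of all tested genes other than the clock genes (41.8% of the variance), LFC replicate 5 (score 126), HFC replicate 13 (75.0) and HFC replicate 14 (56.6) stood apart. HFC replicate 16 had the highest score (86.7) on the second component (18.6%). Results that rest on these libraries are given with and without them, though not every result is given without HFC replicate 16. In whole glands, fewer cells of a type and less RNA per cell cannot be told apart. Levels are CPM after TMM scaling, and since transcript lengths were not used, levels of different genes are not compared.

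The kit kept no strand, and 5 of the members overlap a neighbour by the annotated positions on Sscrofa11.1, so their counts are uncertain. NR1D1 (ENSSSCG00000036933, chr12:22263709-22275515) shared 9417 bases with THRA, a thyroid hormone receptor gene. DBP (ENSSSCG00000003148, chr6:53986958-53993020) shared 3129 bases with CA11 and 130 bases with an unnamed gene. Shorter overlaps were 2369 bases of CLOCK (ENSSSCG00000008909, chr8:54788863-54910133) with TMEM165, 226 bases of ARNTL (ENSSSCG00000013397, chr2:45894366-46025116) with BTBD10 and 101 bases of CRY2 (ENSSSCG00000013270, chr2:16584431-16620669) with MAPK8IP1. Among genes with a position, no overlap was found for PER1 (chr12:53341329-53376723), PER2 (chr15:137793421-137836268), PER3 (chr6:68487640-68548721), CRY1 (chr5:13275541-13364594) or NR1D2 (chr13:10757159-10791285).

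The first comparison asked whether clock genes differed between feed conversion groups. None of the 10 members passed the thresholds of an adjusted p of at most 0.05 and a fold of at least 1.3 in edgeR, where 0% of the 14319 tested genes did. At an unadjusted p under 0.05 there was 1 member, NR1D1, against 5.82% of tested genes (834). The log2 fold was above 0 for 6 members and below 0 for 4, with a median of 0.07 against -0.01 over all tested genes. The groups overlapped for every member, and they did not overlap for 0.021% of all tested genes. DESeq2 called 20 genes, none of them a member.

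In the activating arm, neither gene differed between the groups by more than its spread. ARNTL, the partner that no other gene fully replaces, lay between 7.80 and 23.8 CPM in LFC (median 17.9) and between 13.6 and 35.2 CPM in HFC (median 18.4). The lowest value was in LFC replicate 5 and the highest in HFC replicate 16, with the rest of the groups intermingled. Its log2 fold of HFC over LFC was 0.26 ± 0.23 (SE, edgeR, adjusted p = 0.9999), but 0.10 without HFC replicate 16, 0.15 without LFC replicate 5 and 0.06 by limma-voom. CLOCK, its partner in the dimer, ranged from 8.47 to 49.1 CPM in LFC (median 29.9) and from 12.5 to 50.3 CPM in HFC (median 31.1). It varied more than any other member, 5.94-fold from the lowest library (LFC replicate 5) to the highest (HFC replicate 16). Its log2 fold was -0.01 ± 0.31 and turned to 0.12 without LFC replicate 8.

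The PER genes, repressors of the dimer, had log2 folds below 0 in HFC against LFC, and none passed the test. PER1 ranged from 99.2 to 299 CPM in LFC (median 198) and from 107 to 319 CPM in HFC (median 154). Only 2 of 8 HFC libraries lay above the LFC mean, although the highest value of all was in HFC replicate 12. PER2 had 26.0 to 60.1 CPM in LFC (median 40.5) and 17.9 to 57.8 CPM in HFC (median 35.0), lowest in HFC replicate 13. PER3, which is dispensable for the core rhythm, had 37.0 to 58.9 CPM in LFC (median 42.5) and 24.7 to 60.2 CPM in HFC (median 44.8). Of its HFC libraries, 3 lay below the whole LFC range and 1 above it. The log2 folds were -0.17 ± 0.24 for PER1, -0.22 ± 0.22 for PER2 and -0.12 ± 0.19 for PER3 (SE, edgeR, adjusted p = 0.9999 each). Leaving out 1 library moved them to between -0.35 and -0.08 for PER1 (without HFC replicate 12 and LFC replicate 8), -0.36 and -0.12 for PER2 (without HFC replicates 12 and 13) and -0.23 and -0.04 for PER3 (without HFC replicates 11 and 15).

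The cryptochromes, partners of PER in repression, differed in their extreme libraries. CRY1 lay between 8.85 and 41.0 CPM in LFC (median 29.4) and between 18.4 and 46.9 CPM in HFC (median 27.4). CRY2 lay between 40.6 and 74.2 CPM in LFC (median 56.1) and between 39.0 and 96.4 CPM in HFC (median 53.2). LFC replicate 5 had the lowest CRY1 value and the highest LFC value of CRY2, and HFC replicate 14 had the lowest HFC value of CRY1 and the highest of CRY2. The log2 folds were 0.16 ± 0.25 for CRY1 and 0.02 ± 0.18 for CRY2, with CRY1 at 0.03 without LFC replicate 5, 0.06 without HFC replicate 16 and 0.03 by limma-voom. That of CRY2 turned to -0.13 without HFC replicate 14.

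NR1D1, the nuclear receptor that represses ARNTL, had the largest group difference of the members. Its levels in LFC were 15.9 to 46.6 CPM with a median of 21.2, and in HFC 17.6 to 59.7 CPM with a median of 33.4. LFC replicate 5 was far above the other LFC libraries, which did not exceed 29.1 CPM, and 3 HFC libraries (replicates 13, 14 and 16) lay above every LFC library. The log2 fold was 0.61 ± 0.28 (SE, edgeR, unadjusted p = 0.0420, adjusted p = 0.839), and the alternatives with all 16 libraries gave adjusted p-values between 0.613 and 0.864. With 1 library left out, the lowest adjusted p was 0.338, for LFC replicate 5. The mean log2 CPM differed by 0.54, and 6 of 8 HFC libraries were above the LFC mean (two-sided exact permutation test, p = 0.0870). That p was 0.0317 when LFC replicate 5 or HFC replicate 15 was dropped, and 0.0474 when HFC replicate 12 was. The log2 fold of NR1D1 was 0.29 once LFC replicate 5 and HFC replicates 13, 14 and 16 were left out together. Without LFC replicate 5 alone it was 0.80. The study, which used DESeq2 at the same thresholds, had itself called NR1D1 on these libraries. It placed the gene in several sets, a hormone level set among them. A difference in NR1D1 is therefore not independent evidence. That call was not reproduced here, where DESeq2 called 20 genes and gave NR1D1 an adjusted p of 0.752. THRA, which overlaps NR1D1, had a log2 fold of 0.07 ± 0.11 and followed NR1D1 with r = -0.188.

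NR1D2, the paralogue of NR1D1, was among the steadiest members. It had 39.3 to 83.5 CPM in LFC (median 62.2) and 51.7 to 92.3 CPM in HFC (median 63.4), with a log2 fold of 0.13 ± 0.17, which was 0.05 without LFC replicate 3 or HFC replicate 16. DBP, a PAR bZIP factor that carries the E-box rhythm to output genes, was highest in LFC replicate 5. Its range was 30.5 to 114 CPM in LFC (median 35.9) and 35.7 to 99.7 CPM in HFC (median 54.4). No HFC library exceeded LFC replicate 5, but 5 of 8 lay above the LFC mean. The log2 fold of DBP was 0.34 ± 0.30 (SE, edgeR, adjusted p = 0.9999) and rose to 0.64 without LFC replicate 5, with an adjusted p of 0.360 and an exact permutation p of 0.0354. Exact permutation tests of the other 9 members gave two-sided p-values between 0.210 for DBP and 0.949 for CLOCK.

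**Figure D1:**
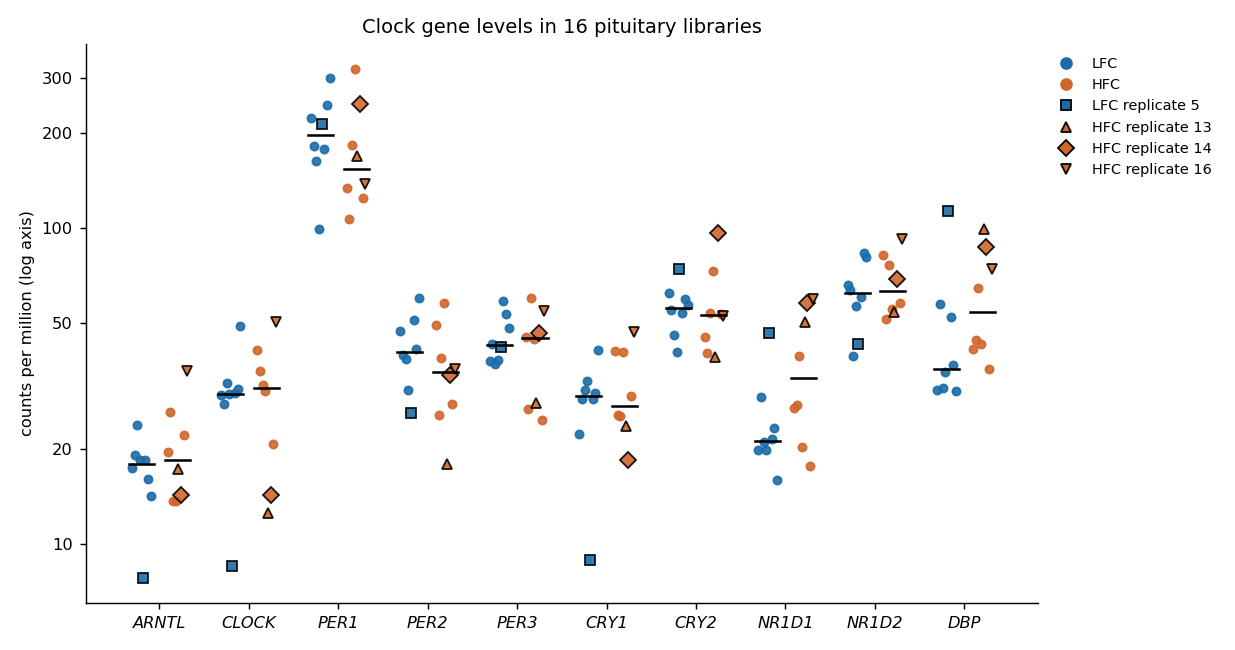
CPM on a log axis for each clock gene, 1 point per library, with LFC in blue and HFC in orange and a black line at each group median. The groups overlap for all 10 genes, and LFC replicate 5 lies at the low end for ARNTL, CLOCK and CRY1 and at the high end for DBP and, within LFC, for NR1D1 and CRY2.

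**Figure D2:**
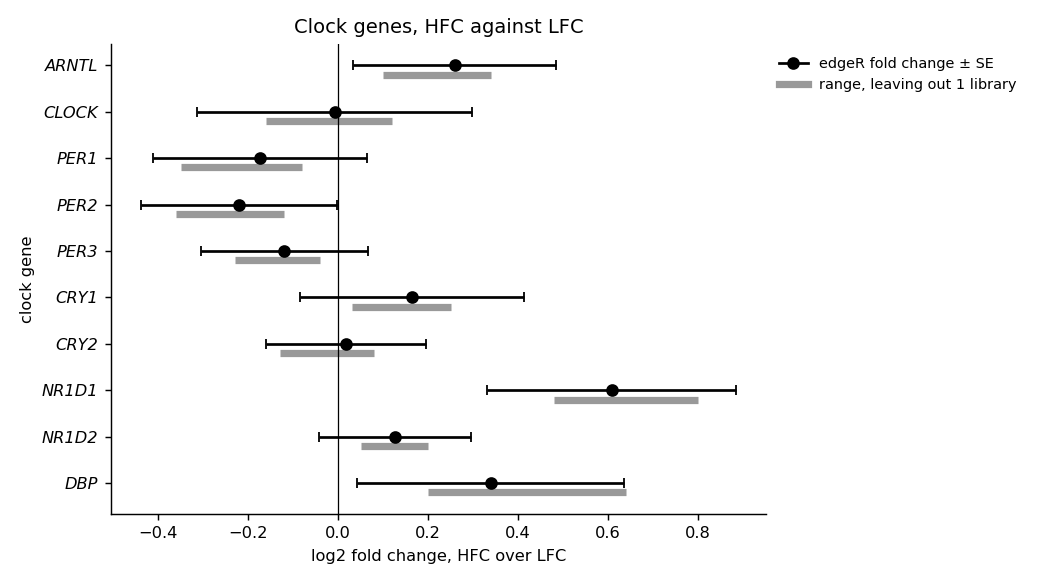
Log2 fold change of HFC over LFC for each clock gene from edgeR, with black bars for the standard error and grey bars for the range of the estimate when each of the 16 libraries is left out in turn. NR1D1 ranges from 0.48 to 0.80 and stays above 0, while the ranges of CLOCK (-0.16 to 0.12) and CRY2 (-0.13 to 0.08) cross 0.

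Variation between libraries was wider than the group differences. The SD of log2 CPM over the 16 libraries had a median of 0.49 over the members and 0.43 over all tested genes. CLOCK (SD 0.70) was more variable than 79.8% of the tested genes, NR1D1 (0.63) than 75.0% and DBP (0.63) than 74.3%. NR1D2 (0.35) and CRY2 (0.35) were more variable than 36.3% and 37.0% of them. The members as a group thus held both variable and steady genes.

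The second question was whether the arms of the clock moved with or against each other over the 16 libraries. Among the 45 pairs of members, the correlation of log2 CPM was positive in 27 and negative in 18. After adjustment over the 45 pairs, 3 passed a permutation test at an adjusted p of at most 0.05, and all 3 were positive. These were NR1D1 with DBP, CLOCK with CRY1 and PER1 with CRY2. The number was 5 when LFC replicate 1 was dropped and 10 when HFC replicate 16 was, when CLOCK with DBP (-0.817), CLOCK with NR1D1 (-0.721), CRY1 with DBP (-0.716), CRY1 with NR1D1 (-0.668) and ARNTL with CRY2 (-0.645) passed as negative pairs. With all 16 libraries and TMM scaling, no negative pair passed by Pearson r, whereas ARNTL with PER1 passed by Spearman rho. CLOCK with DBP passed as a negative pair under RLE (-0.675, adjusted p = 0.0484), upper quartile (-0.649, adjusted p = 0.0478) and total count scaling (-0.594, adjusted p = 0.0418) and after centring on group means (-0.692, adjusted p = 0.0403, permutation), the last also for CRY1 with DBP (-0.673).

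NR1D1 and DBP, both direct E-box targets, were the closest pair. Pearson r was 0.907 (permutation p = 1e-05, the smallest that 100000 resamples can give, adjusted p = 0.00045), and Spearman rho was 0.897 with the same adjusted p. The correlation was 0.931 within LFC and 0.933 within HFC. It was 0.919 without the libraries farthest from the NR1D1 median (HFC replicates 14 and 16), 0.866 without LFC replicate 5 and HFC replicates 13 and 14, and 0.804 with HFC replicate 16 left out too. Among 12579 genes with a symbol and a mean log2 CPM of at least 0, NR1D1 was the gene most like DBP, and DBP ranked 10 for NR1D1. CA11, which overlaps DBP, followed DBP less closely (r = 0.739, adjusted p = 0.00352 over 4 overlapping neighbours by permutation, rho = 0.544 with adjusted p = 0.129). NR1D1 and DBP did not rise and fall with the PER genes in this way. Over 16 libraries, r of NR1D1 was -0.039 with PER1, -0.509 with PER2 and 0.155 with PER3. For DBP the values were 0.062, -0.530 and 0.116. None passed (adjusted p from 0.112 to 0.882, permutation). Without LFC replicate 5 and HFC replicates 13 and 14, the PER2 values were -0.248 for NR1D1 and -0.119 for DBP.

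PER1 and CRY2, from both families of repressors, rose and fell together. Pearson r was 0.732 (permutation p = 0.00114, adjusted p = 0.0171) and rho was 0.844 (adjusted p = 0.00157). The values within groups were 0.747 in LFC and 0.759 in HFC, and r was 0.652 without LFC replicate 4 and HFC replicate 12, the libraries farthest from the PER1 median. Without LFC replicate 5 and HFC replicates 13 and 14 it was 0.869. PER1 and PER2 followed each other with r = 0.515 (adjusted p = 0.117) over all libraries and 0.813 (adjusted p = 0.0129, permutation) over the 13 that remained. PER2 with PER3 had r = 0.643 (adjusted p = 0.0663) and 0.623 over those 13 libraries.

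CLOCK and CRY1 had r = 0.857 (permutation p = 4e-05, adjusted p = 0.0009) and rho = 0.741 (adjusted p = 0.0151), but the libraries that stood apart spanned most of its range. In LFC it was 0.970 and in HFC 0.773. Of all tested genes, 89.6% had a lower correlation with CLOCK than CRY1 had, and the 95th percentile of these correlations was 0.91, so many genes followed CLOCK as closely or more so. Without LFC replicate 5 and HFC replicates 13 and 14 it was 0.632 and no longer passed, and after the first principal component was removed from both genes it was 0.221. With the second component removed as well it was -0.005.

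**Figure D3:**
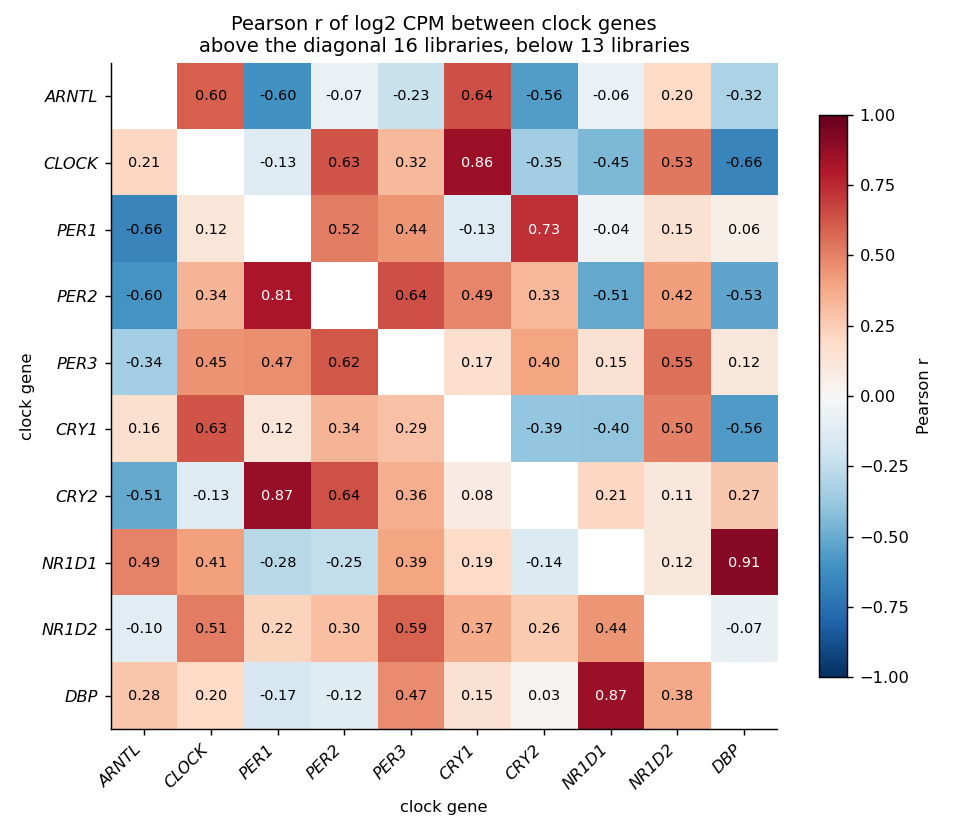
Pearson correlation of log2 CPM for each pair of clock genes, coloured from -1 (blue) to 1 (red), over all 16 libraries above the diagonal and over 13 libraries, without LFC replicate 5 and HFC replicates 13 and 14, below it. NR1D1 with DBP and PER1 with CRY2 are high in both parts, ARNTL is negative with PER1 and CRY2 in both, and CLOCK with DBP moves from -0.66 to 0.20.

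The most negative correlations of ARNTL over the 16 libraries were those with PER1 and CRY2, and neither passed by Pearson r after adjustment. Its positive correlations with CRY1 (r = 0.644, adjusted p = 0.0735, permutation) and CLOCK (0.597, adjusted p = 0.083) did not pass either. They were 0.163 and 0.207 without LFC replicate 5 and HFC replicates 13 and 14. ARNTL with PER1 had r = -0.604 (permutation p = 0.0123, adjusted p = 0.0735) and rho = -0.768 (adjusted p = 0.0129). The value was -0.380 within LFC and -0.759 within HFC, -0.760 without LFC replicate 5 and HFC replicate 16, and -0.664 without LFC replicate 5 and HFC replicates 13 and 14. Leaving out any 1 library kept r between -0.684 and -0.551. Under total count scaling it was -0.34 (adjusted p = 0.343). Of all tested genes, 0.4% had a lower correlation with PER1 than ARNTL had, and 6.1% had a lower correlation with ARNTL than PER1 had. The library with most PER1 (HFC replicate 12, 319 CPM) had the lowest ARNTL of HFC (13.6 CPM), whereas LFC replicate 4, lowest in PER1 (99.2 CPM), had a middling ARNTL level of 18.4 CPM. ARNTL with CRY2 had r = -0.561 (adjusted p = 0.0998) and rho = -0.647 (adjusted p = 0.0605, permutation), with -0.767 in LFC and -0.480 in HFC. It passed the threshold without HFC replicate 16 (r = -0.645, adjusted p = 0.0416) and was -0.35 under total count scaling.

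The values of ARNTL with PER2 and PER3 changed more with the libraries used. With PER2 the correlation was -0.068 over all 16 and -0.597 over 13 libraries, and 0.406 in LFC against -0.274 in HFC. With PER3 it was -0.226 over 16 and -0.337 over 13. After removal of the first principal component of all other tested genes, ARNTL had r = -0.746 with PER2 (adjusted p = 0.00828) and -0.654 with PER1 (adjusted p = 0.0409, permutation). With the second component removed too, ARNTL was negative and past the threshold with PER1 (-0.717), PER2 (-0.807), PER3 (-0.767) and CRY2 (-0.644), and PER1, PER2 and CRY2 were positive with one another (0.764 to 0.863). The number of pairs past the threshold was then 9, and 7 with only the first component removed. These permutations did not allow for the components fitted, so the p-values after their removal can be too small.

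The correlations of ARNTL with NR1D1, NR1D2 and DBP did not pass and changed sign with the libraries used. Its correlation with NR1D1 was -0.063 (adjusted p = 0.840) and rho was 0.006 (adjusted p = 0.988), with -0.665 in LFC, 0.096 in HFC and 0.493 over 13 libraries. LFC replicate 5 had the lowest ARNTL and the highest NR1D1 of its group, whereas HFC replicate 16 was highest in both genes. ARNTL with DBP had r = -0.319 (adjusted p = 0.372) over 16 and 0.281 over 13 libraries, and ARNTL with NR1D2 had 0.201 (adjusted p = 0.642) and -0.105. NR1D1 with NR1D2 did not pass either (r = 0.117, adjusted p = 0.771, rho = 0.112), with -0.484 in LFC and 0.465 in HFC. CLOCK with DBP was -0.661 (adjusted p = 0.0573) over 16 libraries and 0.199 over 13, so its sign changed without the libraries that stood apart.

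**Figure D4:**
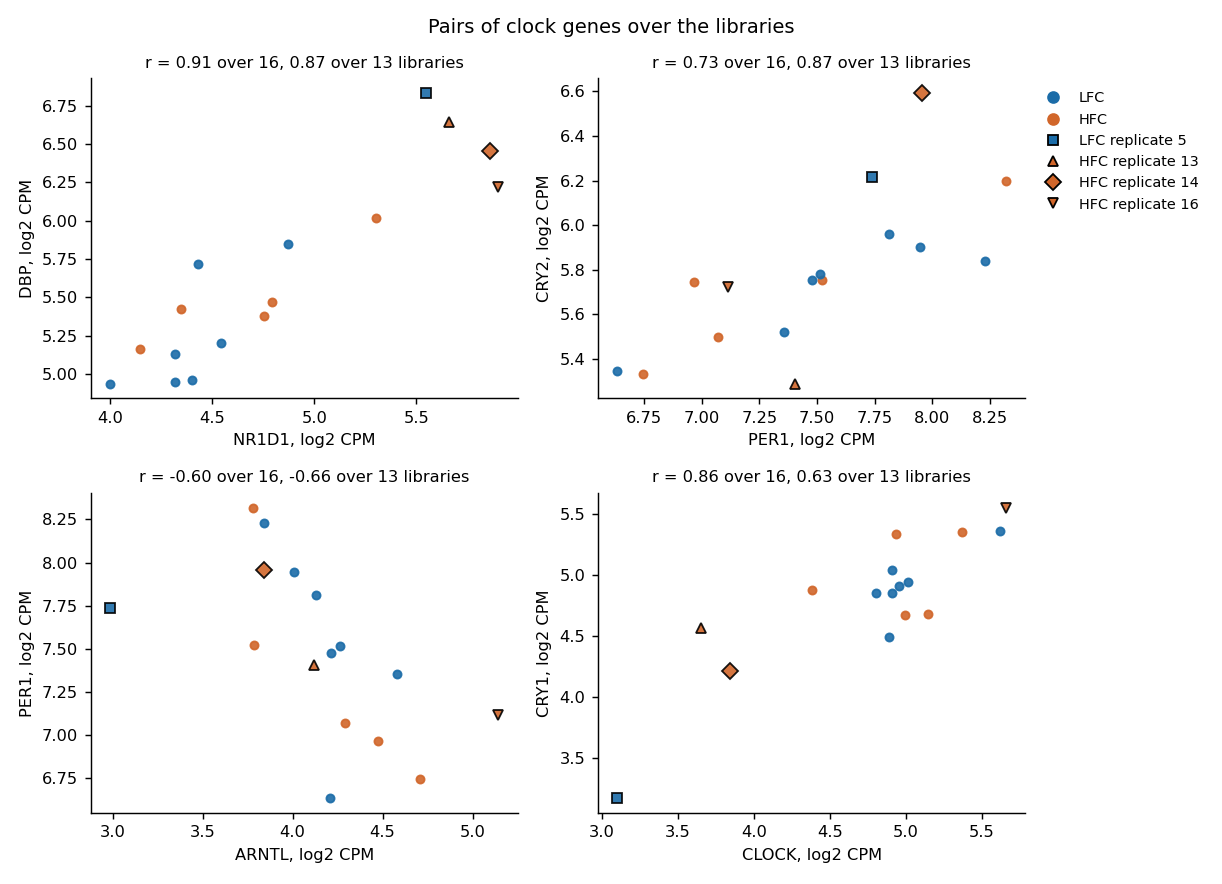
Log2 CPM of pairs of clock genes, 1 point per library, with the libraries that stood apart drawn with their own symbols. NR1D1 with DBP and PER1 with CRY2 rise together with and without those libraries, ARNTL with PER1 falls from upper left to lower right with LFC replicate 5 off the trend, and CLOCK with CRY1 spans most of its range through LFC replicate 5 and HFC replicates 13 and 14.

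Among the clock genes, the relation to the first component tended to go with the length of the gene, though not for every member. The correlation of the component with log2 CPM was -0.95 for CLOCK, -0.87 for CRY1, -0.69 for PER2 and -0.55 for ARNTL. It was -0.42 for NR1D2 and -0.25 for PER3. It was 0.11 for PER1, 0.34 for CRY2, 0.63 for NR1D1 and 0.78 for DBP. DBP spans 6063 bases and NR1D1 11807 bases on the genome, against 121271 bases for CLOCK and 130751 bases for ARNTL. NR1D2 (34127 bases), PER1 (35395 bases) and CRY2 (36239 bases) had similar spans but differed in this correlation. Over the members, the Spearman correlation of this value with the genomic span was -0.806, and over 13443 tested genes with a position it was -0.489. Both are descriptions across genes, which are not independent replicates. The part of gene length in the relations above was not tested.

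**Figure D5:**
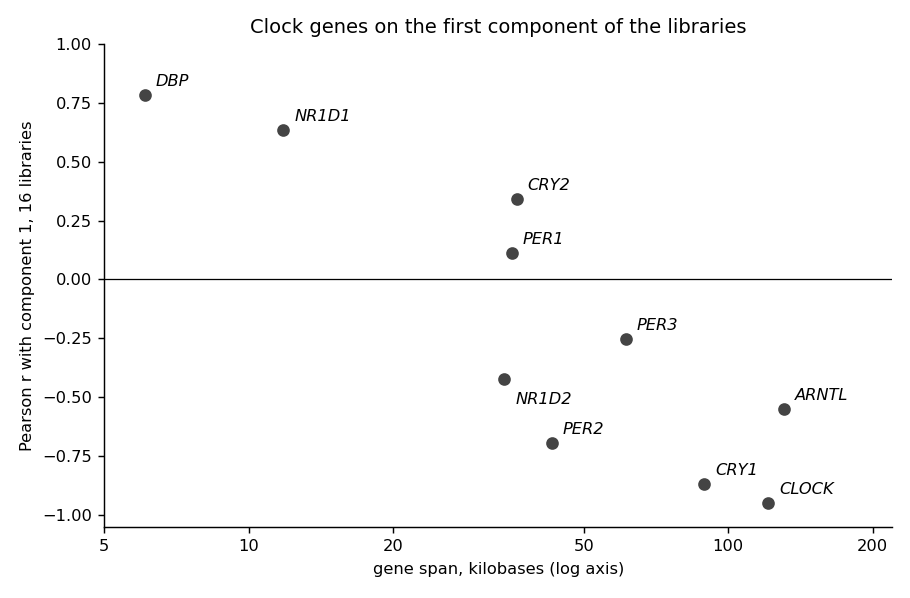
Pearson correlation of each clock gene with the first principal component of all other tested genes over 16 libraries, against the genomic span of the gene in kilobases on a log axis. The short genes DBP and NR1D1 are at 0.78 and 0.63, and the long genes CLOCK and CRY1 at -0.95 and -0.87.

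The accessory genes of the clock were read from a fixed list of paralogues, ROR receptors, PAR bZIP factors, kinases and ubiquitin ligases, of which 26 of 27 were tested. In HFC against LFC 15 were higher and 11 lower, none passed the thresholds in edgeR or DESeq2, and none had an unadjusted p under 0.05. Their log2 folds had a median of 0.05 and ran from -0.40 for PPARGC1A, a coactivator of ROR proteins, to 0.40 for CIART, a repressor of the CLOCK and ARNTL dimer.

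Of the 26 correlations of accessory genes with ARNTL, 4 passed the permutation test by Pearson r after adjustment over the 26, and none of these 4 passed by Spearman rho. BHLHE41 (DEC2), an E-box repressor, had r = 0.814 (adjusted p = 0.00702, rho = 0.668 with adjusted p = 0.0677), and 0.452 without LFC replicate 5 and HFC replicate 16. NPAS2, a paralogue of CLOCK that NR1D1 and ROR proteins also control, had r = 0.738 (adjusted p = 0.00702, rho = 0.724 with adjusted p = 0.0549). NPAS2 had 0.725 without those libraries and 0.765 over the 13 libraries, with 0.519 in LFC and 0.908 in HFC. CSNK1D, a kinase that marks PER proteins for decay, had r = -0.731 (adjusted p = 0.0155, rho = -0.600 with adjusted p = 0.0998) and -0.294 without LFC replicate 5 and HFC replicate 16. BTRC, a ubiquitin ligase subunit that binds phosphorylated PER, had r = 0.699 (adjusted p = 0.0157, rho = 0.653 with adjusted p = 0.0677) and 0.475 without them. Next came its paralogue FBXW11 (0.678, adjusted p = 0.0526) and the deacetylase SIRT1 (0.653, adjusted p = 0.0533).

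PER1 and PER2 are also switched on by glucocorticoid and by cAMP signalling, so both were set against fixed lists of 7 tested glucocorticoid-responsive and 5 tested immediate early genes. No gene of these lists passed the thresholds between the groups in edgeR or had an unadjusted p under 0.05, with 6 of 7 and 3 of 5 higher in HFC. Among 24 correlations, 2 passed the permutation test after adjustment over the 24, both with PER2. ZBTB16, a glucocorticoid-induced zinc finger factor, had r = 0.781 (adjusted p = 0.00408, rho = 0.868), and 0.735 over the 13 libraries. FOSB had r = 0.818 (adjusted p = 0.00408, rho = 0.791) at levels no higher than 3.32 CPM. FKBP5, a textbook glucocorticoid target, had r = 0.052 with PER1 and 0.037 with PER2. For PER1 the highest value was with IER2 (0.576, adjusted p = 0.160, rho = 0.550), and TSC22D3, SGK1, KLF9, DUSP1, PDK4, FOS, EGR1 and NR4A1 passed with neither PER gene.

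The genes most like NR1D1 over the 16 libraries were CTSZ (r = 0.933), LSP1 (0.932), TAGAP (0.932), ITGB2 (0.921) and ARHGAP4 (0.915), several of which are known from leukocytes. The lowest were PRSS35 (-0.919), CDR2L (-0.901), TSPYL5 (-0.900), KCNA5 (-0.898) and FBXO33 (-0.897). For DBP the highest after NR1D1 were PHGDH (0.901), POC1A (0.90), CD99 (0.90) and LSP1 (0.893), and the lowest were ALDH18A1 (-0.923), CERS6 (-0.911), SORL1 (-0.909), IL13RA1 (-0.908) and LIPA (-0.908). For ARNTL they were PIP5K1B (0.861), CCNG2 (0.859), TOX (0.849), OSTM1 (0.847) and SP110 (0.842) at the top. SNAP29 (-0.867), PSTPIP1 (-0.865), PELO (-0.845), IGSF9 (-0.842) and RRP1B (-0.838) were lowest for ARNTL. These values were picked as extremes among 12579 genes and are descriptions.

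Markers of several cell types moved with NR1D1. Its log2 CPM followed the summed level of 6 of 6 microglia and macrophage markers with r = 0.839 (0.781 over the 13 libraries), with sums of 85.6 to 512 CPM in LFC and 152 to 354 CPM in HFC. The melanotroph sum of 3 of 4 markers gave 0.796 (0.776), with 5947 to 77320 CPM in LFC and 22890 to 245900 CPM in HFC. HFC replicate 16 was highest in both this sum and NR1D1 (59.7 CPM). It is among the 13 libraries, and marker relations are not given without it. The pituicyte and glia sum of 4 of 6 markers gave 0.774 (0.622), with 4.4 to 58.5 CPM in LFC and 4.34 to 252 CPM in HFC. DBP moved with the same sums at 0.765, 0.662 and 0.626, and at 0.525, 0.591 and 0.378 over the 13 libraries. POMC is in both the melanotroph and the anterior lobe list, and these sums were 245900 and 257000 CPM in HFC replicate 16. Between the groups, all 3 melanotroph markers tested were higher in HFC, as NR1D1 was by its fold. Each had an unadjusted p under 0.05 in edgeR. Of the 7 anterior lobe markers tested, 1 was higher in HFC and 2 met that threshold, against 5.82% of all tested genes. The same threshold was met by 2 of 4 pituicyte and glia markers, of which 3 were higher in HFC, and by 0 of 6 microglia and macrophage markers, of which 4 were higher. CRY1 moved with the neuron sum of 3 of 4 markers at 0.80 (0.438 over 13) and with the erythrocyte sum of 2 of 3 at -0.738 (-0.573), and ARNTL with the neuron sum at 0.651 (0.337). That neuron sum is of SNAP25, SYT1 and NEFL, and whether it tracks neurons in this gland was not tested. CLOCK moved with the neuron sum at 0.694 (0.014), with the sum of Schwann cell and oligodendrocyte markers at -0.686 (-0.246) and with that of microglia and macrophages at -0.623 (0.009). The neuron sums were 324 to 568 CPM in LFC and 346 to 533 CPM in HFC, the erythrocyte sums 78.9 to 1273 and 80.6 to 892 CPM, and the sums of 3 of 3 Schwann cell and oligodendrocyte markers 93.4 to 173 and 74.1 to 431 CPM. No marker in these lists was at 0. PER1 had correlations between -0.387 and 0.362 with the 9 marker sums over 16 libraries, and the most negative over 13 was -0.462, with the erythrocyte sum. The part of cell makeup in the levels of ARNTL, NR1D1, DBP, CLOCK and CRY1 was not tested.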

How the data were processed

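Whole pituitary RNA of 16 gilts was sequenced from non-stranded poly(A) libraries. Per the labels and methods, the authors cleaned reads with FastQC and Flexbar and aligned them to Sscrofa11.1 with STAR and RSEM. The deposited values are counts per Ensembl gene, not normalised and whole, and how RSEM estimates became whole numbers is not given in the sources used here. The label protocol speaks of fat samples, whereas tissue label and methods give pituitary. A second deposited table holds the authors' own comparison (group means, fold, log2 fold, p-value, adjusted p-value). Only its symbols and positions were used (10091 symbols), and 5454 further symbols came from Ensembl names.

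Groups follow the labels, and the methods state unrelated animals. Counts were fitted with edgeR 4.0.16 in R 4.3.3 (glmQLFit, TMM, filterByExpr on group), which left 14319 genes, with Benjamini-Hochberg adjustment over all of them. On simulated counts, 71% of 2-fold and 99% of 4-fold changes were recovered among 14231 genes. These counts were drawn for each gene independently, without a shared component, and genes of low level were not among those changed. The rates therefore do not give the power of this comparison. Log2 CPM used a prior count of 2. Single genes were compared by exact permutation over 12870 assignments, and correlations with 100000 resamples in scipy 1.17.1, two-sided. Depths of 10.973 to 23.06 M counts gave each member at least 82 counts per library. Alternatives were DESeq2 1.42.0, limma-voom (limma 3.58.1), RLE, upper quartile and total count scaling, other filters and a prior count of 0.5. Further ones were group centring, removal of principal components, and leaving out libraries. Permutations after centring or removal of components did not allow for the fitted terms, so those p-values can be too small. The genes named were the members, the fixed lists, the 6 accessory genes with the strongest correlations with ARNTL and the 5 highest and 5 lowest correlations with NR1D1, DBP and ARNTL. The members and lists were chosen with earlier results of these data known. FBXL21, MT2A, PITX1, OACYL, NKX2-1, S100B, HBA1 and NEFM are not analysed here, JUNB was removed by the filter, and POMC was named by its RefSeq position.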

Additional observations from a re-analysis of the deposited data

Results flagged for a closer look

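LFC replicate 5 lay far below the other 7 libraries of its group for 3 clock genes. Its log2 CPM was 2.99 for ARNTL, against 3.84 to 4.58 in the others. For CLOCK it was 3.10 against 4.80 to 5.62, and for CRY1 it was 3.16 against 4.49 to 5.36. The gap to the nearest library took 0.535, 0.675 and 0.602 of the group range, above the 95% critical value of Dixon's test for 8 samples. Of 20 groups examined, chance is expected to mark about 1 in 20. The 3 genes come from 1 library and are not independent. The same library had the highest score on the first principal component (126).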

How the results depend on the processing

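No clock member or accessory gene was called under any alternative that was run for them. DESeq2 called 20 genes and every other alternative 0. The smallest fold changes changed sign: CLOCK was 0.09 without LFC replicate 5 and HFC replicates 13 and 14, and CRY2 was -0.07 without LFC replicate 5 and HFC replicate 14, -0.01 with HFC replicate 13 also left out, and -0.01 with HFC replicate 16 left out too. Leaving out 1 library, the log2 fold ranged from -0.16 to 0.12 for CLOCK and from -0.13 to 0.08 for CRY2, and the difference in mean log2 CPM from -0.27 to 0.13 for CLOCK, -0.14 to 0.04 for CRY2 and -0.01 to 0.30 for CRY1. The difference of NR1D1 reached an exact permutation p of 0.0497 under total count scaling, 0.0317 when LFC replicate 5 was dropped, 0.0474 for HFC replicate 12 and 0.0317 for HFC replicate 15, and that of DBP 0.0354 without LFC replicate 5.

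The number of pairs past the threshold (3) became 5 by Spearman rho, 6 under upper quartile scaling, 14 under total count scaling, 10 after centring on group means, 7 without the first component and 9 without the first and second. Leaving out 1 library it ranged from 3 to 10, with 5 without LFC replicate 1 and 10 without HFC replicate 16. NR1D1 with DBP and PER1 with CRY2 passed in each of these, and CLOCK with CRY1 failed where components or the libraries that stood apart were removed.

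Among the correlations with ARNTL or NR1D1, sign changes were confined to values not past the threshold by Pearson r over 16 TMM-scaled libraries. For ARNTL with PER2 they were 0.00 (upper quartile), 0.23 (total count), 0.01 (centred) and 0.41 (LFC alone), and with PER3 0.05 (total count). For ARNTL with NR1D1 they were 0.01 (rho), 0.44 and 0.23 (1 and 2 components removed), 0.49 (13 libraries) and 0.10 (HFC alone). ARNTL with NR1D2 gave -0.04, -0.42, -0.10, -0.61 (12 libraries) and -0.59 (2 farthest left out), and ARNTL with DBP 0.21 (first component removed) and 0.28 (13 libraries). ARNTL with CLOCK (0.597 over all libraries) gave -0.25 over 12 libraries. ARNTL with CRY1 (0.644 over all libraries) gave -0.30 over 12 and -0.03 without the 2 farthest. Both pairs passed as positive under total count scaling (0.722 and 0.745) and after group centring (0.624 and 0.627). CLOCK with NR1D1 gave 0.63 and 0.07 (1 and 2 components removed), 0.41 and 0.01 (13 and 12 libraries), and CRY1 with NR1D1 0.40, 0.26 and 0.19 (13 libraries). CRY2 with NR1D1 gave -0.01 (rho), -0.01 and -0.46 (components removed), -0.14 and -0.21 (13 and 12 libraries). PER1 with NR1D1 gave 0.06 (centred) and 0.10 (HFC alone), PER3 with NR1D1 -0.08 (LFC alone) and -0.01 (2 farthest left out), and NR1D1 with NR1D2 -0.04 (2 components removed), -0.48 (LFC alone) and -0.20 (2 farthest left out). Leaving out 1 library gave ranges of -0.35 to 0.03 for ARNTL with PER2, -0.42 to 0.18 with NR1D1, -0.10 to 0.39 with NR1D2 and -0.56 to 0.01 with DBP, and for NR1D1 of -0.17 to 0.11 with PER1, -0.09 to 0.39 with CRY2 and -0.09 to 0.28 with NR1D2. The causes of these changes were not tested beyond the libraries named. Alternatives over 12 libraries and under total count scaling were added after seeing the data. The lowest count of a member was 82, in LFC replicate 5, but the libraries that stood apart on the first component had low total counts. LFC replicate 5 was the lowest of LFC (13.998 M), and HFC replicates 14 (10.973 M) and 13 (11.341 M) were the lowest of HFC. The TMM factor of LFC replicate 5 was 0.7513. The part of depth in the results was not tested. With 8 libraries a group and this spread small differences could go undetected.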

Other observations

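Within a library, the log2 ratio of 2 genes does not depend on the scaling between libraries. PER1 over ARNTL ran from 2.42 (replicate 4) to 4.75 (replicate 5) in LFC with a median of 3.47, and from 1.97 (replicate 16) to 4.54 (replicate 12) in HFC with a median of 3.03. CRY2 over ARNTL ran from 0.94 (replicate 3) to 3.23 (replicate 5) in LFC and from 0.58 (replicate 16) to 2.75 (replicate 14) in HFC. The same libraries, LFC replicate 5 and HFC replicate 16, took an extreme of both ratios. NR1D1 over ARNTL had a median of 0.20 in LFC and 0.66 in HFC, with maxima of 2.56 (LFC replicate 5) and 2.02 (HFC replicate 14). DBP over ARNTL had medians of 1.15 and 1.37. LFC replicate 3 and HFC replicate 15 were lowest in both of these ratios.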
